A study of Mus musculus with 2 samples.

Results

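The p53 targets and the Gadd45 family were described as 10 genes chosen by name (Trp53, Cdkn1a, Mdm2, Ccng1, Bax, Perp, Phlda3, Gadd45a, Gadd45b and Gadd45g). A probe set is a group of probes for one transcript. The members were found by their symbol in the platform table, among probe sets assigned to a single gene, and gave 14 probe sets for 8 genes, out of 12393 genes on the array that have such a probe set. No probe set is named for Trp53 or Bax in the tables used here, so their transcripts were not analysed here.

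The tumour suppressor p53 is a transcription factor that is held at a low level by the ubiquitin ligase Mdm2 and accumulates after DNA damage and other stress. Its target genes stop the cell cycle, aid repair, or lead to cell death, and Mdm2 is itself a target, which closes a negative feedback loop. The Gadd45 proteins are small stress-inducible factors that bind cell cycle regulators and the kinase Map3k4 and take part in DNA repair and demethylation. Gadd45a is a p53 target, whereas Gadd45b and Gadd45g are also induced by other signals. In mouse cells p53 is known to limit reprogramming to the pluripotent state.

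The cells were mouse induced pluripotent stem cells (iPSCs), which are somatic cells returned to a pluripotent state. Both samples carried the same label for growth, serum medium for mouse embryonic stem cells supplemented with 2i, the Mek and Gsk3 inhibitors used to keep such cells naive. One group was the hybridized sample and the other the live sample, with 1 array each. The labels give no strain, passage, donor cell or reprogramming method, nor any detail of the hybridization. The design compares the transcripts read from hybridized and from live cells. With 1 array per group no replicate error exists, no test of a difference is possible, and each difference describes these 2 arrays. RNA was taken from whole samples, so fewer cells of a type and less RNA per cell cannot be told apart.

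Values are log2 GCRMA values, and each difference is the hybridized value minus the live value, so that 1 stands for 2-fold higher in the hybridized sample. A gene was compared where the mean of its arrays was 5 or more, a set limit that is not a test of presence. Of the 8 member genes with values, 7 passed it and Gadd45g did not. Of 12393 genes, 7262 passed. On the brightest probe set of each, the pluripotency genes Nanog, Sox2, Pou5f1, Zfp42, Klf4 and Esrrb read 10.83 or more on both arrays. A second Esrrb probe set lay under the level, at 4.29 in hybridized and 3.07 in live cells. The defining endoderm genes Gata6, Gata4, Sox17 and Foxa2 and 6 of 7 fibroblast genes lay under the level, as did the leukocyte gene Ptprc. Some markers of other cell types at the level were 2-fold lower in hybridized cells as deposited, and none was 2-fold higher. The lower ones were Col1a1 (4.46 hybridized, 6.17 live), Cd3e (7.43 and 8.70) and the keratin gene Krt8 (8.40 and 9.88). With the control centring described below they were at -0.91, -0.47 and -0.68, none 2-fold lower, and Krt18 was 2-fold higher at 1.51. The other Col1a1 probe set, under the level, read 3.93 in hybridized and 3.53 in live cells. Of the other trophectoderm genes, Cdx2, Elf5 and Krt7 lay under the level, and Eomes was at -0.08 and 0.40 on its probe sets. At the control probe sets, the 5' minus 3' value of Actb was 2.52 larger, that of Gapdh 1.81 larger and that of Tfrc 0.50 larger on the hybridized array. For Actb the 5' difference was 1.76 and the 3' difference -0.76, and for Gapdh they were 0.96 and -0.85. For Tfrc both ends were higher on the hybridized array, at 1.88 and 1.38. The part of these shifts in the differences described here was not tested.

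The 7 genes were split between higher and lower, with most of them higher in the hybridized sample. On the brightest probe set of each gene, Gadd45b, Mdm2, Gadd45a and Perp were at least 2-fold higher, Phlda3 was more than 2-fold lower, and Ccng1 and Cdkn1a lay within 2-fold. Thus 4 of 7 member genes were 2-fold higher, against 8.43% of all 7262 genes, and 1 of 7 was 2-fold lower, against 15.4%. These shares depend on the centring. Centred on the 18 hybridization control probe sets, which adds 0.80 to every difference, 5 of 7 members were 2-fold higher, against 31.8% of all genes, and 1 of 7 was lower, against 2.84%. As deposited the member median was 1.01, while the median of all genes was -0.17. Counted by probe set, 6 of 13 were 2-fold higher, against 13.1% of 11407 single-gene probe sets at this level, and 1 of 13 was 2-fold lower, against 12.8%. The members were chosen with such values already known, so these counts are a description.

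**Figure D1:**
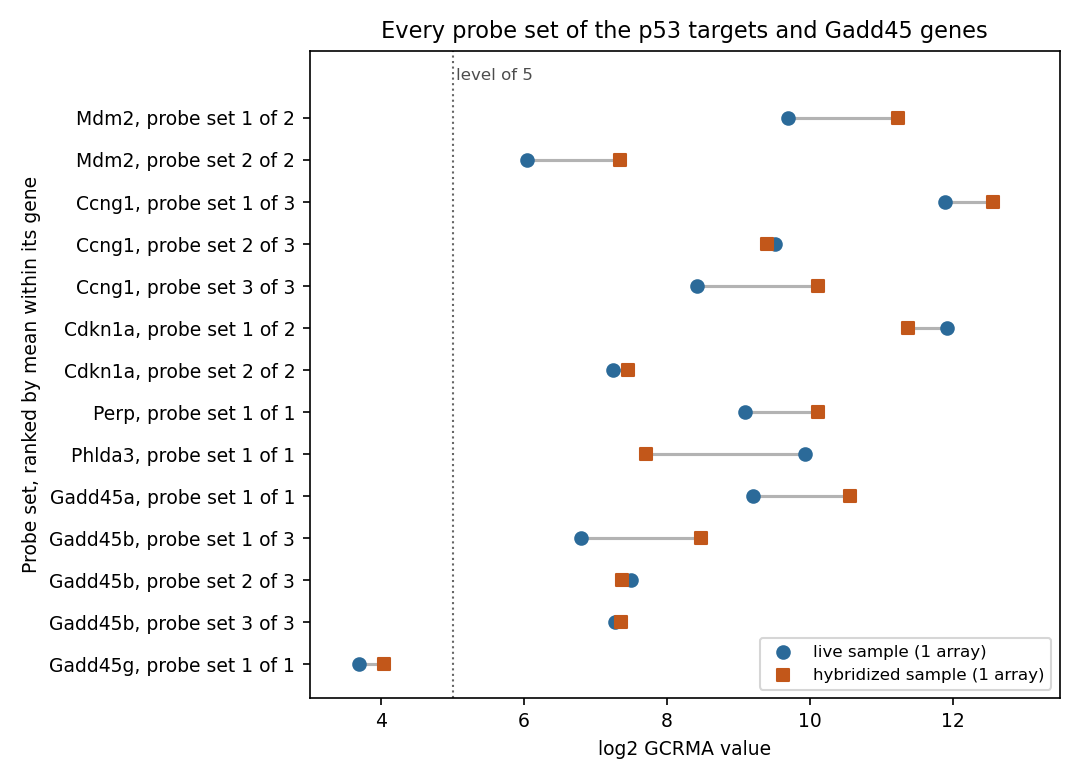
Log2 GCRMA values (horizontal axis) of all 14 probe sets of the 8 member genes with values, blue circles for the live array and orange squares for the hybridized array, with the dotted line at the level of 5. Both Mdm2 probe sets read higher in the hybridized sample, Phlda3 read 7.71 against 9.94, and the probe sets of Ccng1, Cdkn1a and Gadd45b did not all lie on the same side.

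Mdm2 (Entrez 17246), which marks p53 for degradation, was higher in the hybridized sample on both of its probe sets. The brighter one read 11.23 in hybridized and 9.69 in live cells. The other read 7.35 and 6.04, in the same order. The differences of 1.54 (2.91-fold) and 1.31 (2.48-fold) lay 0.23 apart, and Mdm2 was the only member of the 4 with several probe sets at the level whose probe sets all lay on one side of 0. Of 229 genes that were 2-fold higher on the brightest probe set and had a second one at the level, 76, or 33.2%, were 2-fold higher on both. Among 1720 probe sets with a mean within 0.5 of the brighter Mdm2 probe set, 3.43% differed upward by as much or more. For the dimmer one that share was 12.8% of 1425.

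The DNA before the start of Mdm2 is shown because Mdm2 is both a regulator and a target of p53, beside Cdkn1a, the standard example of a target, and Phlda3, the member that differed in the other direction. Each sequence holds the 250 bases before an annotated RefSeq start (build GRCm38.p6), 5' to 3' on the strand of the gene. Capitals mark matches, on either strand, to the TATA box TATAAA, to the CCAAT box, to the GC box GGGCGG, to the AP-1 core TGANTCA, to the octamer ATGCAAAT or to the p53 half-site consensus. The Mdm2 window is chr10:117710759-117711008 on the minus strand, the Cdkn1a window that of its first listed start, chr17:29090729-29090978 on the plus strand, and the Phlda3 window chr1:135765835-135766084 on the plus strand.
Mdm2: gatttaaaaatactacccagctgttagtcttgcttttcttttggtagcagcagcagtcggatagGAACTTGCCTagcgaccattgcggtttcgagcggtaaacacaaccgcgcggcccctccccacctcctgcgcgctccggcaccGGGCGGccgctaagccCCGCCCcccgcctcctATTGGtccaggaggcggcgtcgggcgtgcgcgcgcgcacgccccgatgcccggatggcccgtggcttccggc
Cdkn1a: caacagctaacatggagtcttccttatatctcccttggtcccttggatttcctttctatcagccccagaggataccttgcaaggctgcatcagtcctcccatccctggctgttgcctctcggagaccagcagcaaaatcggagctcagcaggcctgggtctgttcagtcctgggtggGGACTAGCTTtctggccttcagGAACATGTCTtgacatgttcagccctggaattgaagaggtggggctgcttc
Phlda3: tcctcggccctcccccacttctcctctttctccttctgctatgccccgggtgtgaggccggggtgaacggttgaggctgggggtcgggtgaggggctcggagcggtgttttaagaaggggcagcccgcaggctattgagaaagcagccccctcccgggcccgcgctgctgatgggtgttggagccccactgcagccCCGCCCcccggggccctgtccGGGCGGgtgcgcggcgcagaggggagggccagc
Mdm2 holds 1 half-site match, starting 186 bases before the start (GAACTTGCCT), with 2 GGGCGG matches and 1 CCAAT match nearer to it. Cdkn1a holds 2 half-site matches, GGACTAGCTT and GAACATGTCT, starting 73 and 51 bases before this start. The window of its second listed start, chr17:29093519-29093768, lies downstream of the first and is not printed. It holds 0 half-site matches and 2 GGGCGG matches, so the matches named above lie further from that start. Phlda3 holds 2 GGGCGG matches and none of the other motifs in these letters. A match is a description of the letters and does not show a bound site, and a window without one says nothing of p53 binding elsewhere. The half-site consensus occurs in 7.13% of all 32851 windows of this length, and in 4 of the 8 windows that belong to the 7 measured genes in the RefSeq table, which were those of Mdm2, Ccng1 and Gadd45a and the first of Cdkn1a. GGGCGG occurs in 32.7% of all windows and in 5 of the 8, and CCAAT in 33.8% and in 5. TGANTCA occurs in 6.75% of all windows and in 0 of the 8. No match overlapped another in these 8 windows.

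Ccng1 (Entrez 12450), which encodes cyclin G1, a p53 target that binds a phosphatase and acts on Mdm2, gave 3 different readings from 3 probe sets that carry the same accession in the platform table. The brightest read 12.57 in hybridized and 11.90 in live cells, a difference of 0.67. The next read 9.40 and 9.51, a difference of -0.11. The dimmest read 10.11 and 8.42, a difference of 1.69 (3.23-fold). The gene was therefore higher on 2 of 3 probe sets and 2-fold higher on 1. The range of 1.80 across its probe sets was above the median range of 1.24 over 950 genes with 3 or more probe sets at the level, and 29.4% of these had a range as large or larger.

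Cdkn1a (Entrez 12575), which encodes the cyclin-dependent kinase inhibitor p21, the main mediator of p53-dependent arrest, did not differ by 2-fold on either probe set. Its brighter probe set read 11.37 in hybridized and 11.92 in live cells, and its dimmer one 7.45 and 7.24. The differences of -0.55 and 0.21 have opposite signs. Their gap of 0.76 is within the SD of 1.03 that such gaps had across 2720 genes, taken between each gene's top pair of probe sets by mean value. The direction of Cdkn1a is thus not settled by these arrays. Control centring, which moves the median of all genes from -0.17 to 0.63, turned its brighter probe set to 0.25.

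Perp (Entrez 64058), a tetraspan membrane protein of desmosomes and a p53 target linked to cell death, was measured on 1 probe set. It read 10.11 in hybridized and 9.10 in live cells, a difference of 1.01 that only just reached 2-fold. Quantile normalization of the arrays took it to 0.95, under that threshold. Of 1670 probe sets of like level, 13.7% differed upward by as much or more, so a shift of this size was common on these arrays.

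Phlda3 (Entrez 27280), a p53 target whose product binds phosphoinositides and holds back the kinase Akt, was the only member more than 2-fold lower. It read 7.71 in hybridized and 9.94 in live cells, a 4.69-fold difference (-2.23) on its only probe set. It lay more than 2-fold lower under each scaling run, from -2.25 after quantile normalization to -1.43 when centred on the hybridization controls. Of 1637 probe sets within 0.5 of its mean, 0.977% differed downward by as much or more. Its relatives Phlda1 (5.16 and 6.58, a difference of -1.42) and Phlda2 (7.53 and 8.33, -0.80) were lower as deposited too. Under control centring Phlda1 was at -0.62 and Phlda2 at 0.

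**Figure D2:**
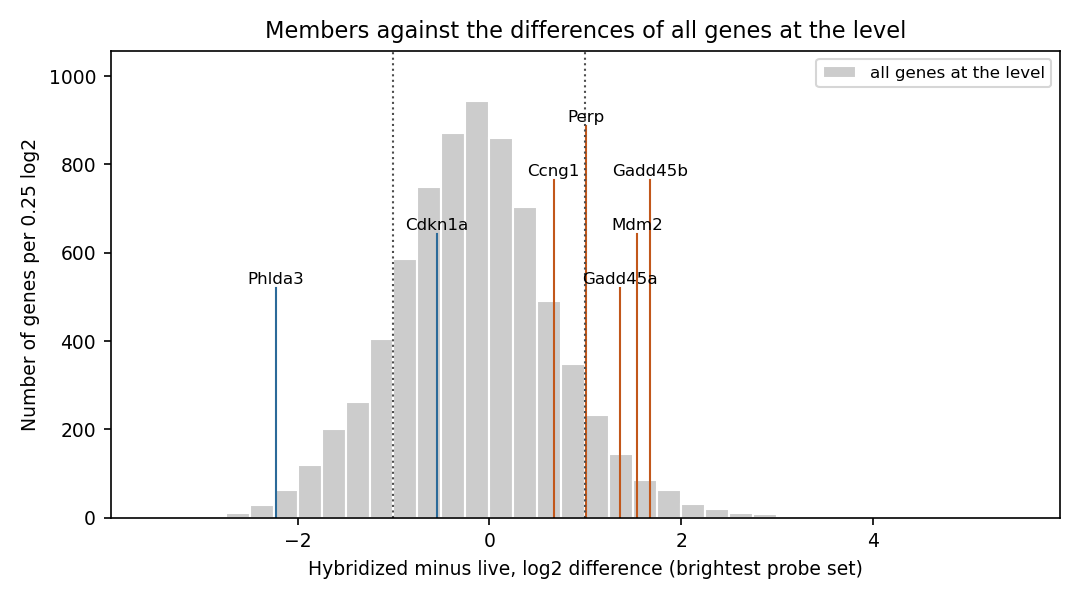
Histogram of the log2 difference, hybridized minus live, of the brightest probe set of the 7262 genes at the level (grey, number of genes per 0.25), with a line for each of the 7 member genes whose height has no meaning and dotted lines at 2-fold. Gadd45b, Mdm2, Gadd45a and Perp lie at 1.01 to 1.68 and Phlda3 at -2.23.

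The Gadd45 genes differed among themselves. Gadd45a (Entrez 13197), the family member most closely tied to p53, read 10.56 in hybridized and 9.20 in live cells on its only probe set. This 2.57-fold difference (1.36) stayed above 2-fold under each scaling run, at 1.30 to 2.16, and was equalled or exceeded by 6.63% of 1719 probe sets of like level. Gadd45b (Entrez 17873), which is induced by NF-kappaB, TGF-beta and neuronal activity as well as by stress, read 8.48 and 6.80 on its brightest probe set, a 3.20-fold difference (1.68). Its other probe sets, for which the platform table gives no accession, showed almost none. They read 7.37 and 7.50 (-0.13), and 7.36 and 7.28 (0.08). The mean over the 3 was 0.54, under 2-fold. The range of 1.81 across them was as large or larger in 28.8% of the 950 genes with 3 or more probe sets. Gadd45g (Entrez 23882), often active in differentiating cells, read 4.04 and 3.69 on its only probe set, under the level of 5 on both arrays, so its difference of 0.35 has no order.

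The starts of the Gadd45 genes are shown to compare the family. The windows are chr6:67037408-67037657 on the minus strand for Gadd45a, chr10:80929841-80930090 on the plus strand for Gadd45b and chr13:51846425-51846674 on the plus strand for Gadd45g, cut and marked as those above.
Gadd45a: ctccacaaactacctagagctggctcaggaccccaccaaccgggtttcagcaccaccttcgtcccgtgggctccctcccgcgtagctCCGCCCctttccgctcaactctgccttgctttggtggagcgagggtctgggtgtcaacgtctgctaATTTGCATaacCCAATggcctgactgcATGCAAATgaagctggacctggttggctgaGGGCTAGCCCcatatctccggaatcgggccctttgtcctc
Gadd45b: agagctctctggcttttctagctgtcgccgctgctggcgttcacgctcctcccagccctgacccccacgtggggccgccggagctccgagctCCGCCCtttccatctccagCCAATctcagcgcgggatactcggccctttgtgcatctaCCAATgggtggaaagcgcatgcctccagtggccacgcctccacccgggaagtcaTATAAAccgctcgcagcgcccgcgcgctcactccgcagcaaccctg
Gadd45g: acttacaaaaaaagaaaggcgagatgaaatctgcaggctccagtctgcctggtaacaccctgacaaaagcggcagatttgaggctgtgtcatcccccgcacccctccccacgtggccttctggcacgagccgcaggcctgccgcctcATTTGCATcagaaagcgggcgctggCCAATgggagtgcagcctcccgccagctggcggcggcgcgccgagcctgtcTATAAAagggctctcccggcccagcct
CCAAT occurs in all 3 windows, 1 time each in Gadd45a and Gadd45g and 2 times in Gadd45b. TATAAA occurs in Gadd45b, starting 46 bases before the start, and in Gadd45g, starting 27 bases before it, but not in Gadd45a, and in 12.4% of all windows. The octamer ATGCAAAT, the motif of POU factors, was added to the search after the sequences had been read. It occurs 2 times in Gadd45a, once on each strand, 1 time in Gadd45g and not in Gadd45b, against 1.6% of all windows. Only Gadd45a of the family holds a half-site match, GGGCTAGCCC, starting 40 bases before the start. GGGCGG occurs 1 time each in Gadd45a and Gadd45b and not in Gadd45g.

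Genes that act on p53 were described from a list of 29, of which 21 were on the array and all 21 at the level. Mdm4, the partner of Mdm2 that blocks p53 activity, stood furthest above. It read 11.02 in hybridized and 9.02 in live cells on its brightest probe set, and 10.10 and 8.07 on the other, so that both differed about alike (2.00 and 2.03). Rchy1, another ubiquitin ligase of p53, was 1.27 higher on its only probe set (8.95 and 7.68). Hipk2, a kinase that phosphorylates p53, was 1.24 lower (4.70 and 5.94), near the level, with -1.32 and -0.76 on its other probe sets at the level. Trim28, a corepressor that works with Mdm2, read 10.93 and 12.09, a difference of -1.16. In all 2 of the 21 were 2-fold higher, against 8.43% of all genes, and 2 were lower, against 15.4%, with a median of -0.27 against -0.17. Under control centring 8 of the 21 were higher, against 31.8%, and 0 lower, against 2.84%, with a median of 0.53 against 0.63. The damage kinases Atm (0.26), Atr (0.70) and Chek2 (-0.27) lay within 2-fold as deposited on their only probe sets. Chek1 was at -0.27 on its brightest probe set, but at 1.15 (11.26 and 10.11) and -0.58 on its other probe sets at the level. As deposited, Mdm2 and Mdm4 were thus higher by more than 1 on every probe set that measured them.

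The medians of other p53 targets lay near those of all genes when both lists were pooled. Over both lists of further targets, 34 of 44 genes on the array were at the level. As deposited 1 of the 34 was 2-fold higher, or 2.94% against 8.43% of all genes, and 6 were lower, or 17.6% against 15.4%, with a median of -0.10 against -0.17. Under control centring 11 were higher, against 31.8% of all genes, and 0 lower, against 2.84%, with a median of 0.69 against 0.63. Counted by probe set, 4 of 49 were 2-fold higher, against 13.1%, and 6 lower, against 12.8%. Among 21 targets of arrest and repair 1 was 2-fold higher, against 8.43% of all genes, and 5 were lower, against 15.4%. The median of this list was -0.46 as deposited, against -0.17, and 0.34 under control centring, against 0.63. The higher gene was Ercc5, the repair endonuclease XPG (9.18 and 7.99, 1.19). The lower ones were Gtse1, which shuttles p53 out of the nucleus (9.14 and 10.66, -1.52), Xpc, a sensor of DNA lesions (-1.37), Epha2, an ephrin receptor (-1.31), Sesn2, a stress sensor upstream of mTOR (-1.21), and Lif, the cytokine that sustains mouse pluripotency (-1.11). Control centring, which adds 0.80 to every difference, put the 5 lower genes at -0.72 to -0.31, so that none was 2-fold lower. As deposited the second probe set of Sesn2 differed by only -0.20. The targets Zmat3 (0.29), Trp53inp1 (0.30 and 0.50), Ddit4 (0.16) and Sesn1 (-0.49, -0.96 and 0.08) lay within 2-fold on each probe set at the level as deposited. Ddb2, another lesion sensor, was at -0.07 on its brightest probe set and at 2.27 on its second (8.90 and 6.63).

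Death-related targets numbered 13 at the level, with 0 of them 2-fold higher on the brightest probe set, against 8.43% of all genes, and 1 lower, against 15.4%. The lower one was Tnfrsf1a, a TNF receptor (5.36 and 6.44, -1.08), and the median was 0.11, against -0.17 over all genes. Pmaip1, which encodes the BH3-only protein Noxa, read 10.76 and 9.86 (0.90), short of 2-fold as deposited on its only probe set. Aen, a p53-induced exonuclease, was at 0.80 on its brightest probe set (11.07 and 10.27), 2.38 on its second (7.53 and 5.15) and -0.43 on its dimmest. Bid, a BH3-only protein cut by caspases, was at 0.39 on its brightest (11.09 and 10.70) and 2.42 on its second (6.83 and 4.41). Counted by probe set, 2 of 21 were 2-fold higher, against 13.1%, and 1 lower, against 12.8%. Under control centring 5 of the 13 genes were 2-fold higher, against 31.8% of all genes, and 0 lower, against 2.84%. The Bcl2 family, which includes Bax, had 12 members at the level, of which 0 were 2-fold higher, against 8.43% of all genes, and 3 lower, against 15.4%. The lower ones were Bik, a BH3-only protein (5.28 and 7.19, -1.91), Bcl2l1, which encodes the survival protein Bcl-xL (7.29 and 8.71, -1.42), and Bad (7.49 and 8.74, -1.25; -0.15 on its second probe set). The other Bcl2l1 probe sets, with means under the level, were at 2.80, 2.25 and -0.06. Bak1, the other pore-forming effector of this family, read 9.79 and 10.19, and Mcl1, a survival factor, 12.41 on both arrays, with its other probe sets at -0.19 to 0.64. Control centring gave 4 of 12 members 2-fold higher, against 31.8% of all genes, and 1 lower, against 2.84%, which was Bik at -1.11.

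**Figure D3:**
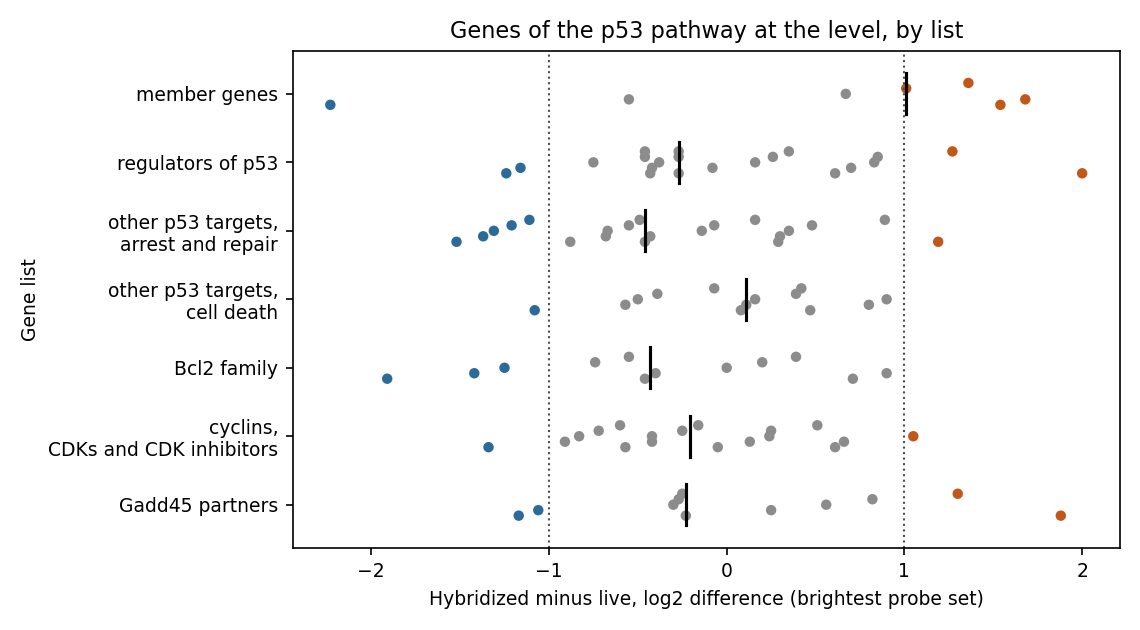
Log2 difference, hybridized minus live, of the brightest probe set of each gene at the level (points) in the member set and 6 lists of related genes, with the median of each as a black bar and dotted lines at 2-fold; orange points are 2-fold higher and blue points 2-fold lower. The member median is 1.01, and the medians of the other lists run from -0.46 to 0.11.

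The cell cycle genes that p21 and its relatives act on were near balance as deposited when counted on the brightest probe sets. Of 18 at the level, Rbl1, a pocket protein of the Rb family, was 2-fold higher (10.08 and 9.03, 1.05, with -0.08 on its second probe set), and E2f4, its partner, was 2-fold lower (7.51 and 8.85, -1.34). That is 1 of 18 in each direction, against 8.43% of all genes higher and 15.4% lower, and the list median was -0.20. Under control centring 6 were higher, against 31.8%, and 0 lower, against 2.84%, with a median of 0.59 against 0.63. By probe set as deposited, 2 of 26 were 2-fold higher, against 13.1%, and 3 lower, against 12.8%. The median over these probe sets was -0.42, against -0.07 over all single-gene probe sets at the level. Ccnd1 was at 0.13 on its brightest probe set (9.78 and 9.65), but at -1.70 (8.11 and 9.81) and -1.12 on its others. Cdkn1b, which encodes the inhibitor p27, read 12.19 and 11.68 on its brightest probe set, and the second differed by 3.39. Cdkn1c lay under the level on both arrays.

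Binding partners and downstream kinases of the Gadd45 proteins were spread on both sides. Of 11 at the level 2 were 2-fold higher, against 8.43% of all genes, and 2 lower, against 15.4%. The higher ones were Taf12, a TFIID subunit tied to Gadd45a-dependent demethylation (8.29 and 6.41, 1.88), and Mapk8, the kinase JNK1 (9.26 and 7.96, 1.30). Map3k4, the kinase that Gadd45 proteins bind and activate, was 2-fold lower on its brightest probe set (7.35 and 8.52, -1.17), as was Map2k3, a kinase upstream of p38 (7.68 and 8.74, -1.06). Both were 2-fold higher on their second probe set, at 1.11 and 1.93, so the direction of neither is settled. Counted by probe set, 6 of 19 were 2-fold higher, against 13.1%, and 2 lower, against 12.8%. The list median was -0.23 as deposited and 0.57 under control centring, where 5 genes were higher, against 31.8% of all genes, and 0 lower, against 2.84%.

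Other relatives of the members differed among themselves. The p53 relatives Trp63 (at most 3.01 on either array) and Trp73 (3.78 and 4.73) lay under the level on both arrays. Ccng2, which encodes cyclin G2, read 7.89 and 8.44, a difference of -0.55 where its paralogue Ccng1 was at 0.67, each on the brightest probe set. The second Ccng2 probe set, under the level, differed by 0.92 (3.96 and 3.04), and Ccng1 ran from -0.11 to 1.69 across its probe sets. Under control centring the brightest Ccng2 probe set was at 0.25. Ccni, which encodes the related cyclin I, was higher on each of its 3 probe sets, at 0.54 on the brightest (12.72 and 12.18), 1.18 on the next (11.39 and 10.21) and 1.80 on the dimmest (9.15 and 7.35).

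**Figure D4:**
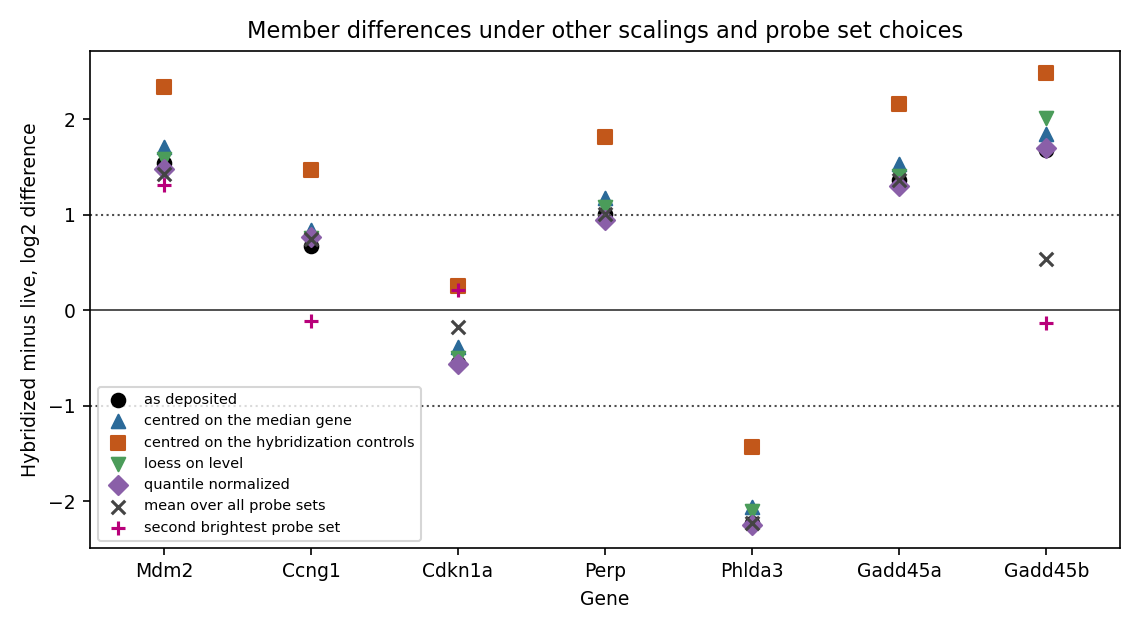
Log2 difference, hybridized minus live (vertical axis), of the 7 member genes at the level, as deposited and under other scalings and choices of probe set (symbols), with dotted lines at 2-fold. Mdm2 and Gadd45a lie above 1 and Phlda3 below -1 at every symbol. Gadd45a, Phlda3 and Perp have 1 probe set each, so the choice of probe set could not move them. Ccng1 and Gadd45b fall below 0 only on the second brightest probe set. Cdkn1a rises above 0 there and under centring on the hybridization controls.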

How the data were processed

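PolyA RNA of both samples was extracted with Trizol LS, amplified and labelled with biotin (NuGEN Ovation kits), per the labels' protocols. GCRMA and affy are named in the submitters' processing notes, without versions. The values the authors deposited, 1 per probe set on each array, were taken as log2; this base was inferred from the method and from values between 1.02 and 14.24. The set of arrays normalized with each other is not given in the sources used.

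Of 22690 probe sets, 64 are controls, 20380 have 1 gene, 691 have several and 1555 are unnamed here. Symbols were updated through Entrez IDs with RefSeq (GRCm38.p6), where 12369 of 12393 genes matched. Members and lists were chosen with earlier results of these data known. The brightest probe set stood for a gene, at a mean of 5 or more, and a difference of 1 or more in size was called 2-fold. No model was fitted. The text names every member probe set, the list members 2-fold apart (or the furthest where none was), close relatives of the members, and examples chosen after their values were seen. Promoter windows were found for 7 of the 8 measured members, not Perp. Alternatives were other level limits (4, 7, none), fold thresholds (1.5, 4), probe set choices, centrings, loess (span 0.3) and quantile normalization; dropping only _x_at and _s_at, the second brightest probe set, list counts by probe set and the octamer were added after the data were seen. The scripts were tested on simulated data. Software was pandas 2.3.3, numpy 2.4.6, statsmodels 0.14.6 and matplotlib 3.10.9 under Python 3.11.15.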

Additional observations from a re-analysis of the deposited data

How the results depend on the processing

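Leaving out an array was not possible with 1 per group, and no paired analysis was possible because each group has a single array. At the 2-fold threshold the count of lower member genes was 1 under every alternative run, where the share of all genes ran from 2.84% to 15.7%. That of higher member genes ran from 3 to 5, where the share of all genes ran from 5.36% to 31.8%. These counts are out of 7 member genes, with 2 exceptions. Without the suffixes _x_at, _s_at and _a_at 3 of 6 were higher, and with no level limit 4 of 8. At a threshold of 1.5-fold 5 members were higher, against 17.5% of all genes, and 1 lower, against 29.9%. At 4-fold 0 were higher, against 1.2%, and 1 lower, against 1.56%. The member median was 1.81 when centred on the hybridization controls, where the median of all genes was 0.63, and 0.45 to 1.18 under the other alternatives. Control centring also turned Cdkn1a to 0.25. Without the suffixes _x_at, _s_at and _a_at, Ccng1 turned to -0.11 and Mdm2 had no probe set left. On the second brightest probe set Cdkn1a was at 0.21, Ccng1 at -0.11 and Gadd45b at -0.13, which are other probes of the same genes. The arrays give no detection calls here, so signal over background could not be judged.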

Other observations

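Several relatives of the members read differently on their probe sets, and the brightest one did not carry the largest difference. Cdkn1b, which encodes p27, differed by 0.51 on its brightest probe set and by 3.39 on the other, where the live sample read 5.61. Bcl2l1 was 1.42 lower on its brightest probe set, while 2 of its probe sets with a mean under the level differed by 2.80 (5.92 and 3.12) and 2.25 (5.52 and 3.27). Bak1 was 0.40 lower on the brightest and 1.41 higher on a probe set under the level (4.58 and 3.17). These genes were chosen after their values were seen.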
